A study of Homo sapiens with 8 samples.

Results

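Open chromatin beside the centromeres was described as 311 regions of 36845 in all (0.844%). A region was a stretch of hg19 covered by peaks that shared at least 1 bp, pooled over 8 peak lists. It counted as a centromere-flank region when 1 of its peaks lay within 1 Mb of the gap of 3 Mb that stands for the centromere on each of 22 chromosomes. The gap starts were given to 10 kb, so distances carry an error of that size. No measured value was used in this choice.

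The data were ATAC-seq peak lists of 293T, a line derived from human embryonic kidney that expresses SV40 large T antigen and has an aneuploid genome. ATAC-seq marks accessible DNA by letting a transposase insert sequencing adapters there. All 8 libraries came from cells that were crosslinked, permeabilised and tagmented, after which the mixture was incubated with Q Sepharose, an anion exchanger. FT was the material that did not bind, and G20, G100, G200, G300, G500, G700 and G1000 were the successive washes with 20, 100, 200, 300, 500, 700 and 1000 mM NaCl. Each fraction had 1 library and no replicate, so every test below compares libraries and not conditions. The peaks of the G200 list are named G50_200 in the file, and whether they come from the 200 mM wash alone was not settled. G200 values are therefore given with those of the other libraries, and the main results are also given without it.

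Human centromeres are built on long arrays of alpha satellite, a tandem repeat, and are flanked by other satellites and by segmental duplications. In hg19 the arrays are replaced by a gap, and only the outermost copies are written out at its edges. Short reads that come from many copies of a repeat can align to the few copies that an assembly holds. How reads with several possible positions were treated is not given in the sources used here.

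Centromere-flank regions were found on all 22 chromosomes and in 33 of the 44 flanks, 155 of them left and 156 right of the gap. Chromosome 2 held 37, chromosomes 10 and 20 held 28 each, chromosome 1 held 27, and chromosomes 13 and 15 held 1 each. The 11 flanks with no region were the left ones of chromosomes 5, 7, 13, 14, 15 and 22 and the right ones of chromosomes 1, 9, 11, 16 and 21. In hg19 the short arms of the acrocentric chromosomes 13, 14, 15 and 22 are not assembled, and the right flanks of chromosomes 1, 9 and 16 hold unassembled heterochromatin. Flanks also differed within a chromosome. On chromosome 10, 22 regions lay right and 6 left of the gap, and on chromosome 2, 23 lay left and 14 right. Only 1 region touched a gap as given, on chromosome 17 from 22260445 to 22261675.

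A larger share of these regions was called in every fraction than in the genome as a whole. All 8 lists held 55 of the centromere-flank regions (17.7%), against 4241 of all regions (11.5%). A single list held 101 of them (32.5%), against 15013 of all regions (40.7%). The regions called in all lists lay in 21 flanks on 15 chromosomes. Called in FT, G20 and G100 but in none of G500, G700 and G1000 were 6 centromere-flank regions (1.93%), against 1143 of all regions (3.10%). The reverse pattern had 0 centromere-flank regions, against 2 in all. The shares describe these lists, and regions of 1 flank are neighbours and not replicates.

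**Figure D1:**
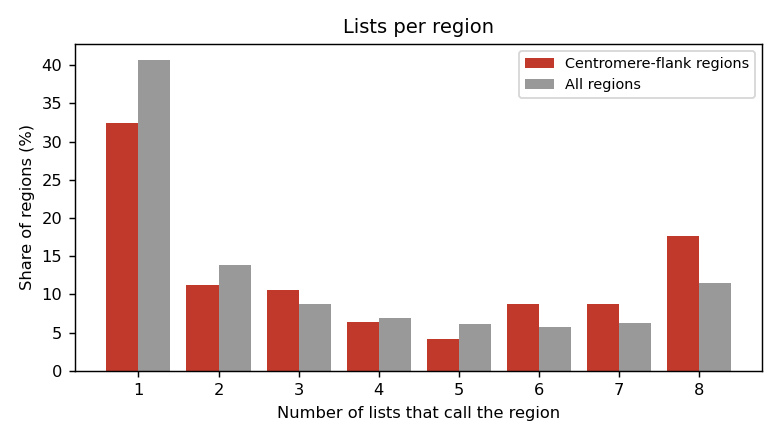
Share of regions (%, vertical axis) by the number of peak lists that call them (horizontal axis), for the 311 centromere-flank regions (red) and all 36845 regions (grey). The red bar stands above the grey one at 8 lists (17.7% against 11.5%) and below it at 1 list (32.5% against 40.7%).

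Each list held between 101 (G700) and 207 (FT) peaks in the flanks. They made up 0.908% of the peaks for FT, 0.898% for G20, 1.09% for G100, 0.913% for G200, 0.979% for G300, 1.19% for G500, 1.25% for G700 and 1.14% for G1000. The exact 95% binomial interval ran from 0.789% to 1.04% in FT and from 1.02% to 1.51% in G700, for counting error only, so even these libraries had overlapping intervals. Over the 7 salt libraries the share had a positive rank correlation with salt (Spearman's rho = 0.79, exact permutation p = 0.0480, adjusted p = 0.0960 over 4 trends; Pearson's r = 0.71, exact permutation p = 0.0798, adjusted p = 0.254). It did not pass the adjusted threshold of 0.05, and r was 0.67 without G700 and G1000, the libraries farthest from the median salt. When each list was trimmed to the length of the shortest, 8102 peaks, rho was −0.43 (exact permutation p = 0.326, adjusted p = 0.435), so the direction turned with list length.

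The peaks in the flanks ranked high within their lists. Ranked by the authors' −log10 q, the median flank peak stood at percentile 68.7 for FT and for G20, 67.0 for G100, 62.3 for G200, 65.8 for G300, 74.0 for G500, 79.4 for G700 and 70.2 for G1000, where 100 is the strongest peak of a list. Flank peaks took 3 of the 10 highest ranks in G200 and 6 (G500) to 8 (G700) in the other lists. They took 12 of the 100 highest ranks in G200 and 20 (G20) to 29 (FT) in the other lists. A peak's fold enrichment, which sets the reads at its summit against the reads expected around it, was much like that elsewhere. Among regions called in all lists its median was 7.06 (G100) to 8.82 (G20) in the flanks, against 6.67 (G700) to 8.67 (G20) in ordinary regions. Ordinary regions are those of chromosomes 1 to 22 and X outside the flanks and more than 20 kb from a chromosome's first base or last peak.

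Rank and background were both high close to the gap. The local background is the number of reads that the peak caller expected around a peak, and it is given here as a multiple of the lowest value in its list. Each region counts once here, with the mean percentile and the median background over its peaks, so a region of a single list weighs as much as one of all lists. Within 100 kb of the gap lay 53 regions with a median percentile of 89.1 and a median local background of 21.7 times the lowest, and 20 of them (37.7%) were called in all lists. Between 100 and 500 kb lay 90 regions with a median percentile of 34.87 and a background of 2.32 times, 12 of them (13.3%) in all lists. Beyond 500 kb lay 168 regions with a median percentile of 37.7 and a background of 2.28 times, 23 of them (13.7%) in all lists. The medians over all 36845 regions were a percentile of 33.0 and a background of 2.18 times. The medians over regions were thus high within 100 kb and near those of the genome farther out. Single high values also lay farther out. Of the 32 flank regions above percentile 97, 18 lay within 100 kb, 10 between 100 and 500 kb and 4 beyond. With each peak counted once, the median percentile was 66.0 between 100 and 500 kb and 56.7 beyond, against 50.0 over all regions.

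**Figure D2:**
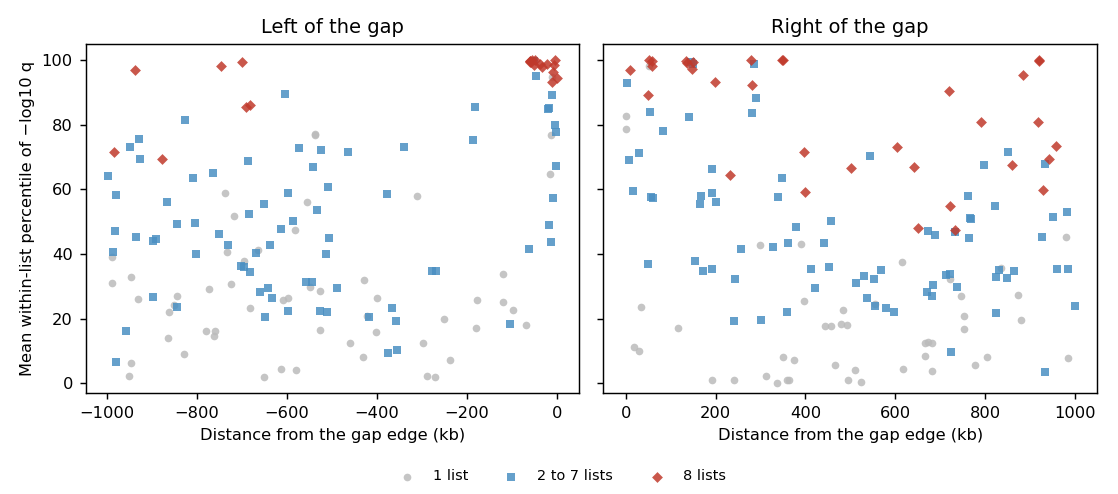
Mean within-list percentile of −log10 q (vertical axis) of each centromere-flank region against its distance from the gap edge in kb (horizontal axis), left and right of the gap, coloured by the number of lists that call it. Regions of all 8 lists (red) crowd near the top within 100 kb of the gap, where the median of all 53 regions is 89.1, and scatter beyond 500 kb, where that of all 168 is 37.7.

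Regions close to the gap were also crowded. Within 100 kb of the gap 81.1% of the regions had a neighbouring region within 10 kb, against 34.5% of all regions. Over the whole 1 Mb, 54 regions (17.4%) had a local background of at least 10 times the lowest, against 496 of all regions (1.35%). Of the 54, 37 lay within 100 kb, 14 between 100 and 500 kb and 3 beyond 500 kb. They lay on 10 chromosomes, and 96.3% had a neighbour within 10 kb. Of the 370 ordinary regions with such a background 81.4% had one, against 34.3% of all ordinary regions, so crowding at a high background was not particular to the flanks. Reads of a neighbouring peak may add to the local background, so the measures are not independent. The limit of 10 times was chosen after the values were seen.

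The limit of 1 Mb is a choice and not a measured edge. Between 0.8 and 1 Mb, just inside it, lay 63 regions, 11 of them (17.5%) in all lists. Between 1 and 1.2 Mb, just outside it, lay 62 regions, 4 of them (6.45%) in all lists. The median local background over regions was 2.23 times the lowest just inside and 1.48 times just outside.

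The 12 highest-ranked regions called in all lists lay on 6 chromosomes, and 10 of them were within 350 kb of the gap. The first was chr1:121484125-121485442, 54.6 kb left of its gap, which ranked first in every list. Reads here are the whole number of reads at the summit of a peak, recovered from the authors' fold and p-value. The region had 3443 reads for FT, 2425 for G20, 2226 for G100, 1588 for G200, 2983 for G300, 1990 for G500, 1842 for G700 and 2098 for G1000. It alone held 27.7% of the reads of the 55 regions, its median local background was 433 times the lowest, and its 8 summits lay within 5 bp of each other.

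Next in reads came chr19:27731858-27732782, 51.9 kb right of the gap. It had 1584 reads for FT, 1142 for G20, 1051 for G100, 744 for G200, 1458 for G300, 926 for G500, 763 for G700 and 1022 for G1000, and its summits lay within 3 bp. G200 had the lowest count in both regions. The third, chr7:61968664-61969772, lay 919 kb right of its gap. It had 1055 reads for FT, 651 for G20, 606 for G100, 397 for G200, 881 for G300, 588 for G500, 506 for G700 and 605 for G1000. A neighbour at chr7:61970217-61970583, 0.444 kb further right, had 434 reads for FT, 322 for G20, 277 for G100, 184 for G200, 379 for G300, 249 for G500, 237 for G700 and 265 for G1000. Together the 4 regions with the most reads held 52.0% of the reads of the 55.

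Chromosomes 10, 11, 19 and 2 gave the other highest-ranked regions. Those right of the chromosome 10 gap were chr10:42529202-42529841, chr10:42596818-42597221 and chr10:42599525-42600415. Left of the chromosome 11 gap they were chr11:51590287-51591350 and chr11:51580041-51580859, and chr19:27738368-27738733 lay right of the chromosome 19 gap. Left of the chromosome 2 gap they were chr2:92324329-92325583, 4.42 kb from it, and chr2:92269101-92269790, 60.2 kb from it. The chromosome 2 pair differed in kind. At 4.42 kb the fold enrichment was 10.6 (G300) to 12.5 (G20) over a local background of 52.4 times the lowest. At 60.2 kb it was 16.5 (G200) to 24.74 (G20) over a local background of 10.8 times, so that fewer reads stood out further.

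Reads could be compared across libraries in the 55 regions called in every list. They held 67205 reads, 7.96% of the reads of the 4223 regions tested across the genome, of which they were 1.30%. Chromosome 1 gave 29.1% of these reads, chromosome 10 16.6%, chromosome 19 15.3% and chromosome 7 11.4%. Libraries differ in depth, so a library's reads were set against the number expected from its share of the reads of the 4112 ordinary regions tested. A ratio of 1 means that centromere-flank and ordinary regions were divided among the libraries in the same way.

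G200 held fewer reads of the centromere-flank regions than its share of ordinary regions, and G20 held somewhat fewer. The summed ratio was 1.10 for FT, 0.837 for G20, 1.10 for G100, 0.649 for G200, 1.01 for G300, 1.12 for G500, 1.18 for G700 and 1.15 for G1000. The 95% exact Poisson interval was 0.632 to 0.667 in G200, 0.820 to 0.854 in G20 and 1.08 to 1.12 in FT, for counting error only. The direction for G200 and FT depended on the scale. The lowest local background of each list gives another measure of depth, and G200's share of it was 0.649 times its share of ordinary reads, FT's 1.31 times. Scaled to that background the ratio was 0.840 for FT, 0.943 for G20, 1.12 for G100, 1.00 for G200, 0.984 for G300, 1.11 for G500, 1.13 for G700 and 1.12 for G1000. On that scale the flank sum in G200 matched its background, and the ordinary regions of G200 stood at 1.54. What the shift between scales comes from was not tested. The local background of the same 55 regions was divided among libraries much as their reads were, with a ratio of 0.629 in G200 and 0.780 in G20, and 1.05 to 1.15 in the other 6, on the scale of ordinary reads. Reads and local background were both recovered from the fold and p-value of the same peaks, so this is not an independent observation.

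**Figure D3:**
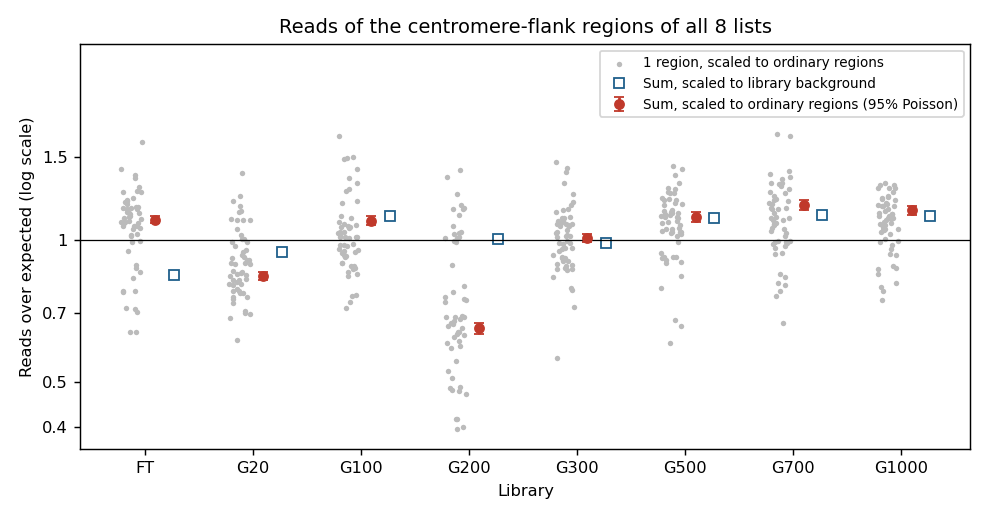
Reads over expected (log scale, vertical axis) of the 55 centromere-flank regions called in all lists, by library in the order of the washes (horizontal axis). Grey points are single regions and red circles the sum with its 95% Poisson interval, both scaled to ordinary regions, and blue squares are the sum scaled to the library background. In G200 the red circle is at 0.649 and the blue square at 1.00.

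Single regions were tested with a two-sided exact binomial test of 1 library against the other 7, adjusted by Benjamini-Hochberg over all 33784 tests of the genome. In at least 1 library 25 of the 55 centromere-flank regions passed at an adjusted p under 0.05 (45.5%), against 2.51% of all 4223 regions and 56 of the 4112 ordinary ones (1.36%). Each of the 25 was lower in G200, where 1.21% of all regions were lower. None was higher in G200, where 0.663% of all regions were. The test finds small differences only in regions with many reads. Among regions with at least 400 reads, a limit set after the values were seen, G200 was lower in 25 of 29 centromere-flank regions, against 10 of 104 ordinary ones, and higher in 0, against 9. Scaled to the library background, 6 of the 55 were lower and 4 higher in G200, against 6 and 724 of all regions.

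The other libraries had fewer calls. In G20 9 of the 55 were lower (0.379% of all regions). FT was higher in 5 (0.616% of all), G100 in 5 (0.189% of all), G500 in 3 (0.237% of all), G700 in 6 (0.166% of all) and G1000 in 3 (0.071% of all). In the opposite direction 0 of the 55 were called in these libraries, where FT was lower in 0.332% of all regions, G20 higher in 0%, G100 lower in 0.237%, G500 lower in 0.071%, G700 lower in 0.237% and G1000 lower in 0.213%. In G300 0 of the 55 were called, against 0.0237% of all regions higher and 0.284% lower. Scaled to the library background, FT was lower in 15 of the 55, against 520 of all 4223 regions, and higher in 0, against 1. G20 was then lower in 2, against 5 of all, and higher in 1, against 47. On that scale G100 was higher in 8, against 17 of all, G500 in 4, against 13, G700 in 5, against 6, and G1000 in 4, against 5. Outside the flanks, 31 tested regions that were not ordinary either had a local background of at least 10 times the lowest. On the scale of ordinary reads their summed G20 ratio was 0.838, with 28 of the 31 below 1 and 6 called, all lower. For FT it was 1.21, with 8 calls up and 1 down. Low G20 and high FT ratios thus also occurred outside the flanks. In G200 these 31 had a summed ratio of 1.56, unlike the flank regions, with 9 calls down and 8 up. Even so, 20 of the 31 lay below 1 in G200, so low G200 ratios occurred outside the flanks as well. Without G200, 62 centromere-flank regions were called in all of the other lists, and 15 of them differed in at least 1 library. G20 was lower in 13 of the 62, against 17 of all 4417 regions tested. G100 was higher in 5, against 5 of all, and G300 lower in 2, against 10. G500 was higher in 1, against 6 of all, G700 in 1, against 1, and G1000 in 2, against 3. FT was higher in 0, against 15 of all, and lower in 0, against 12. Among the largest, the low G20 ratio of the chromosome 1 region stayed past the threshold (0.782), and its FT ratio of 1.04 did not pass.

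The chromosome 1 region at 121484125 was called in 7 libraries. Its ratio was 1.08 for FT, 0.815 for G20, 1.08 for G100, 0.685 for G200, 0.978 for G300, 1.14 for G500, 1.24 for G700 and 1.18 for G1000. The exact binomial test gave an adjusted p of 1.67e-61 in G200 and of 2.40e-26 in G20, and with this many reads the ratio of 1.08 in FT passed as well (adjusted p = 0.000105). Scaled to the library background its FT ratio was 0.827 and its G200 ratio 1.06, so both crossed 1, and G200 was no longer called.

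**Figure D4:**
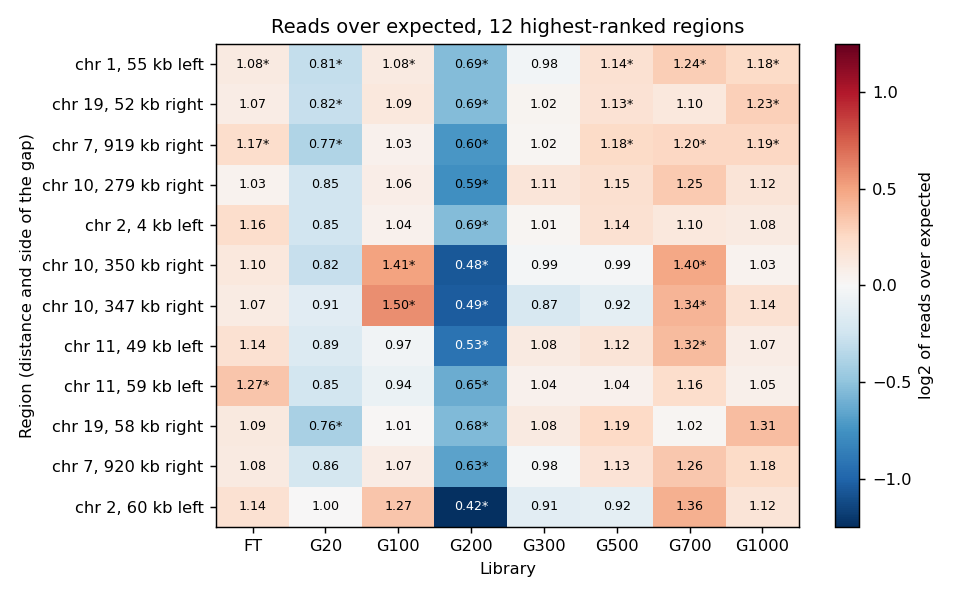
Reads over expected for the 12 highest-ranked centromere-flank regions (rows, named by chromosome, distance and side of the gap) in the 8 libraries (columns), scaled to ordinary regions, with colour on a log2 scale. Asterisks mark calls at an adjusted p under 0.05 (exact binomial test). G200 is below 1 and marked in all 12 rows, from 0.42 to 0.69. G100 is marked at 1.41 and 1.50 in 2 chromosome 10 rows and at 1.08 in the chromosome 1 row.

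Within the flanks, the low G200 ratios lay mostly in regions with both a high local background and many reads. The 29 tested regions with a background of at least 10 times the lowest had a summed G200 ratio of 0.627, a range of 0.397 to 1.01, and 25 calls. In the 26 regions under 10 times it was 0.968, with a range of 0.596 to 1.40 and 0 calls. Their interval was 0.887 to 1.05. The 26 had a median of 150.5 reads each, against 1125 in the 29, so the test could find less there. Of the 29, 28 lay below 1, and the exception was chr1:120837854-120839319 (1.01), 701 kb left of its gap. The same 29 were the tested flank regions with at least 400 reads, so reads and background cannot be told apart here. The 201 ordinary regions with at least 10 times had a summed ratio of 1.04 and a median of 0.922. Of the 201, 121 lay below 1, 13 were called lower and 7 higher, and the highest ratio was 4.22. Their background, of 10.0 to 48.9 times, reached less far than the 10.8 to 433 times of the 29. At 30 times or more, a limit set after the values were seen, lay 9 ordinary regions with ratios of 0.421 to 4.22 and a median of 0.906. Of the 9, 6 lay below 1, 3 were called lower and 1 higher, so low ratios at a high background also occurred outside the flanks. The 23 flank regions at 30 times or more had a median of 0.629, all 23 lay below 1, and 21 were called lower. Scaled to the library background, the summed G200 ratio was 0.966 in the 29, 1.49 in the 26 and 1.61 in the 201. The change of scale multiplies the G200 ratio of every group by the same factor, so the order of the 3 groups could not differ.

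**Figure D5:**
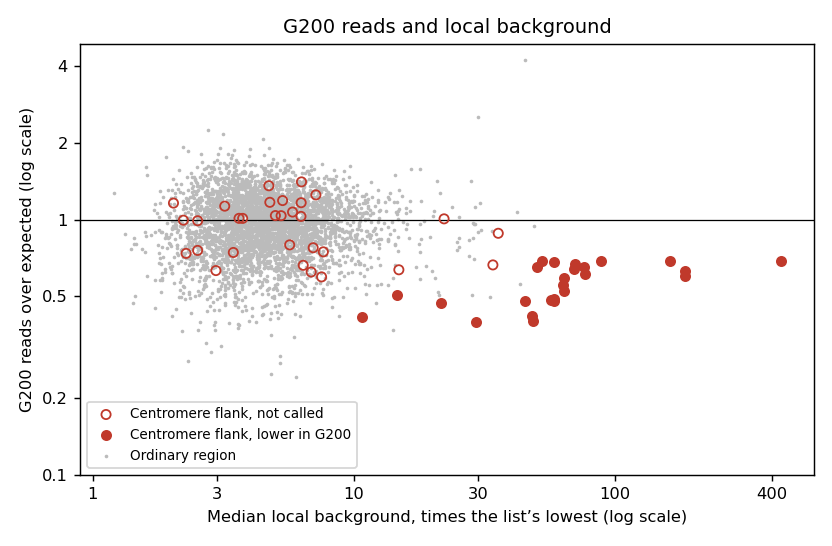
G200 reads over expected (log scale, vertical axis) against the median local background as a multiple of the list's lowest (log scale, horizontal axis) for regions called in all lists. Red circles are centromere-flank regions, filled where G200 was lower at an adjusted p under 0.05, and grey points are ordinary regions. Filled circles start at 10.8 times, and all open circles but 4 lie under 10 times.

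In most of the same 29 regions the summits of the 8 lists lay close together. A summit is the base of highest coverage, and its position could differ among the 8 lists. The 8 summits spanned a median of 58 bp in the 29 regions of high background, against 263.5 bp in the 26 others. The median over ordinary regions was 231 bp. It was 203 bp in the 201 ordinary regions of high background and 153 bp in the 104 ordinary regions with at least 400 reads. The 29 had more reads, with a median of 1125 against 378 in the 201 and 471 in the 104. Whether read number sets the span was not tested. Within 100 bp lay the summits of 18 of the 29, of 1 of the 26 and of 39 of the 201 ordinary regions of high background. The widest centromere-flank region went the other way, with summits spread over 2553 bp. It was chr6:58776318-58779437, 3120 bp wide and 50.6 kb left of its gap, with a G200 ratio of 0.655 (exact binomial, adjusted p = 0.00642).

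High G100 ratios lay mostly right of the chromosome 10 gap. Right of it lay 14 regions with a background of at least 10 times the lowest. The 7 of them called in all lists spread over 216 kb, and their summed ratio was 1.37 in G100 (95% Poisson interval 1.30 to 1.44) and 0.524 in G200 (0.486 to 0.565). G100 was higher in 4 of them by the exact binomial test, at a ratio of 1.49 in chr10:42384894-42385714, 1.66 in chr10:42387000-42387485, 1.50 in chr10:42596818-42597221 and 1.41 in chr10:42599525-42600415. Left of the chromosome 11 gap, the 4 of 6 high-background regions that were called in all lists had 0.927 in G100 (0.853 to 1.01) and 0.541 in G200 (0.488 to 0.599), and none was called in G100. Left of the chromosome 2 gap, the 7 of 10 called in all lists had 1.05 in G100 (0.971 to 1.13) and 0.595 in G200 (0.542 to 0.653). These tested regions of the 3 chromosomes thus shared the low G200 ratio and not the high G100 ratio. Scaled to the library background the G200 ratio was 0.808 on chromosome 10, 0.835 on chromosome 11 and 0.918 on chromosome 2. The G100 intervals of chromosomes 10 and 11 did not overlap, and the difference between chromosomes was not given a test of its own.

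The lowest G200 ratio of the 55 lay at the chromosome 17 gap and the highest far from that of chromosome 18. The region chr17:22252897-22253397, 6.60 kb left of it, had a G200 ratio of 0.397, and the region that touches the gap had 0.470. At the other end was chr18:19180217-19181136, 720 kb right of its gap, with 1.40 in G200. It had a local background of 6.31 times the lowest and 240 reads, and was not called. Scaled to the library background its ratio was 2.16, and it was called higher (exact binomial, adjusted p = 0.000430).

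A further 27 centromere-flank regions (8.68%) were called in 7 lists, against 6.30% of all regions. The missing list was G1000 in 9, G200 in 7, G700 in 7, G500 in 2, FT in 1 and G300 in 1. Of the 7 missing in G200, 5 had a local background of at least 10 times the lowest, as had 8 of all 27. G700 and G1000 were among the shortest lists, with 8102 and 10246 peaks, whereas G200 held 15988. Which list was missing is not given here for regions outside the flanks. These counts thus do not show whether the absences in G200 are particular to the flanks.

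Regions called in 1 list came mostly from FT and G300. FT held 35 of the 101, G300 21, G200 15, G100 11, G20 9, G500 4, G1000 4 and G700 2. As a share of the flank regions of a list these were 16.9% in FT, against 19.2% of all its regions, and 10.9% in G300, against 15.8%. They were 10.3% in G200, against 14.7%, 7.59% in G100, against 7.77%, and 5.14% in G20, against 13.9%. In G500, G700 and G1000 they were 3.23%, 2.0% and 3.42% of the flank regions, against 5.46%, 4.33% and 5.56% of all regions. The share was below that of all regions in each of the 8 lists. The highest −log10 q among them was 30.0, in FT at chr19:27733081-27733364, with 224 reads and a fold enrichment of 2.57. It lay 0.298 kb from the chromosome 19 region with 1584 reads for FT, which was called in all lists. The next were chr8:43827947-43828261 in G500, with 34 reads and a −log10 q of 16.5, and chr8:46841429-46841810 in FT, with 41 reads and 12.4.

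None of the other 3 trends with salt passed the threshold. The summed read ratio had a Spearman's rho of 0.79 over the 7 salt libraries (exact permutation p = 0.0480, adjusted p = 0.0960) and a Pearson's r of 0.63 (exact permutation p = 0.127, adjusted p = 0.254), or r = 0.42 without G700 and G1000. The median percentile of the flank peaks had a rho of 0.57 (exact permutation p = 0.200, adjusted p = 0.267) and an r of 0.56 (exact permutation p = 0.191, adjusted p = 0.255), or 0.50 without those libraries. With lists of equal length its rho was 0.93 (exact permutation, adjusted p = 0.0270), past the threshold. The share of reads left of the gap stayed near an even split. The left regions held 51.5% of the flank reads for FT, 51.9% for G20, 48.8% for G100, 51.2% for G200, 51.1% for G300, 51.3% for G500, 51.63% for G700 and 50.6% for G1000 (rho = −0.14, exact permutation p = 0.783, also after adjustment, and r = 0.11, exact permutation p = 0.830, or 0.19 without those libraries).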

How the data were processed

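ATAC-seq peak lists of 8 fractions of 293T cells, 1 library each, were analysed. Per the submitters' processing notes, the authors' tools were MACS2 2.2.1, Bowtie2 2.2.6 and HOMER, and the builds named are mm10 and hg19, of which the files carry the chromosome names of hg19. No source used here gives the read filters or the settings of the peak calls. For each peak the deposited lists hold a whole-number score, the ratio of summit reads to local background (fold enrichment), −log10 p and −log10 q, all the authors' values for 1 library. Peak names read GL in the FT list and G50_200 in the G200 list. Groups follow the labels' titles, and what those names mean was not settled.

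Reads were recovered by solving the MACS2 fold and Poisson p for a whole pileup, with a match within 0.001 plus 2e-06 times the printed −log10 p. This gave reads for 99.3% (G500) to 100% of the peaks of a list and for 1205 of the 1208 flank peaks. For paired reads a pileup may count fragments. The reads of a region in a library were those of its highest peak. The depth of a library is not listed, and its relative depth was taken from ordinary regions, or from its lowest local background as an alternative. Peaks sharing 1 bp were merged. Regions of all 8 lists were tested as stated in the results, with Python 3.11.15 and scipy 1.17.1, and the procedure was tested on simulated data. Intervals cover counting error only, and PCR copies are not independent molecules.

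The regions named are the 12 highest-ranked in all lists, the 12 called with the smallest adjusted p, the nearest to a gap for the gaps named, the 3 strongest of a single list, the widest, and others chosen after their values were seen. Members and lists were chosen with earlier results of these data known. Sequence motifs and gene annotation of the regions were not analysed here, because no hg19 sequence or annotation was used here.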

Additional observations from a re-analysis of the deposited data

How the results depend on the processing

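Each library is a single preparation, so no difference here has a replicate check, and fractions of 1 preparation are not independent. No paired analysis was possible because each fraction has 1 library. Depth limits the 26 tested regions of low local background, in which the test could find only large differences. The motif searches that had been planned were not run.

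The number of regions that differ in at least 1 library, 25, was 23 to 27 with expected shares from medians, reads summed over peaks, flanks of 0.5 or 2 Mb, a −log10 q of at least 5, lists of equal length or peaks trimmed to 100 bp around the summit. It was 24 on the background scale, in part with other directions. On that scale 1087 of all 4223 regions were called, against 106 on the scale of ordinary reads. Without G200 it was 15 of 62, with the calls over all 4417 regions tested given by library above. The flank regions tested were 55 with medians or summed reads, 32 with flanks of 0.5 Mb and 98 with flanks of 2 Mb. They were 41 with the −log10 q limit, 45 with equal lists and 46 with trimmed peaks, so the share called differed by setting. G200 was lower in 23 of 32 with flanks of 0.5 Mb and in 25 of 98 with 2 Mb, against 51 of all 4223 regions in both.

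Scaled to the library background, the summed ratio was 0.840 in FT and 1.00 in G200, on the other side of 1 from the values on the scale of ordinary reads, and 0.943 for G20, 1.12 for G100, 0.984 for G300, 1.13 for G700 and 1.12 for G1000. What moves the scale was not tested. Of 41 calls in the named regions, 23 held on this scale, 10 kept their direction but no longer passed, and 8 turned. A call turned when its ratio crossed 1, whatever its adjusted p. None of the G200 ratios that turned was called on this scale. Those that turned were chromosome 1 at 121484125 in FT (0.827) and G200 (1.06), chromosome 11 at 51580041 in FT (0.968) and G200 (1.00), chromosome 19 at 27731858 (1.06) and 27738368 (1.05) in G200, chromosome 2 at 92324329 in G200 (1.06) and chromosome 7 at 61968664 in FT (0.891).

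Without G200 the summed ratio was 1.05 for FT, 0.7997 for G20, 1.05 for G100, 0.961 for G300, 1.06 for G500, 1.12 for G700 and 1.09 for G1000. Of the 26 calls of named regions in the other libraries, 14 then held and 12 no longer passed. Without FT it was 0.855 in G20, 1.12 in G100 and 1.03 in G300.

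With flanks of 0.5 Mb there were 143 regions, 32 of them in all lists, and the G200 ratio was 0.632. The share of peaks was then 0.425% for FT, 0.421% for G20, 0.536% for G100, 0.394% for G200, 0.462% for G300, 0.655% for G500, 0.667% for G700 and 0.605% for G1000. With flanks of 2 Mb there were 653 regions, 98 of them in all lists, and the ratio was 1.07 for G100, 0.723 for G200, 1.15 for G700 and 1.13 for G1000. The share of peaks was then 1.87% for FT, 1.84% for G20, 1.98% for G100, 1.88% for G200, 1.93% for G300, 2.11% for G500, 2.21% for G700 and 2.13% for G1000, and the rho of the median percentile with salt was −0.14 (exact permutation, adjusted p = 0.783).

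With a −log10 q of at least 5 there were 197 regions, and the ratio was 1.15 in FT and 0.627 in G200. The share of peaks was 1.12% for FT, 1.17% for G20, 1.42% for G100, 1.11% for G200, 1.13% for G300, 1.62% for G500, 1.78% for G700 and 1.38% for G1000. With lists of equal length there were 186 regions, and the G200 ratio was 0.629. The share of peaks was 1.41% for FT, 1.38% for G20, 1.32% for G100, 1.14% for G200 and 1.30% for G300, and its rho with salt was −0.43. The rho of the median percentile with salt was 0.93 in both of these settings (exact permutation, adjusted p = 0.0270), past the threshold that it missed with whole lists.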
